A study of Dendrobium catenatum with 16 samples.

Results

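The comparison described here set 6-BA alone against water in young plantlets of the orchid Dendrobium catenatum, whose stems store mannan-rich polysaccharides. Its members were the 2 libraries labelled 1.0 mg/L 6-BA and the 2 labelled distilled water, out of 16 libraries in the series, read across all genes. The plantlets were 2 months old and were cultured for 3 weeks on Murashige and Skoog medium with potato, sucrose and agar, and messenger RNA came from young leaves, stems and shoots together. The control medium received distilled water in place of hormone, and no group carried a transgene or mutation in the labels. A pair of further groups of 2 libraries, grown in the same way with 0.1 mg/L NAA or with 0.1 mg/L NAA plus 1.0 mg/L 6-BA, entered the same fit. Plantlets 9 months old, with 1 library for each dose and time, were used only to read the same genes at 0 and 1.0 mg/L 6-BA after 2 and 4 weeks.

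6-BA (benzyladenine) is a synthetic cytokinin and NAA a synthetic auxin. Cytokinins are bound by membrane histidine kinases, which pass a phosphate through phosphotransfer proteins to type-B response regulators, the transcription factors of the pathway. These switch on type-A response regulators, which dampen the signal, and cytokinin dehydrogenases, which destroy the hormone. In shoots cytokinin is known for promoting bud outgrowth and meristem activity, and it acts against auxin in many tissues.

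Total counts were 39390550 and 40077508 in the water libraries, 54323048 and 52941927 in the 6-BA libraries and 34289743 to 74461337 over the 8 libraries of the fit. Of 23063 features, 19420 had enough counts to be tested. Within a group the 2 libraries were not interchangeable, the chi-square divided by its degrees of freedom being 17.9 for water and 17.1 for 6-BA. They are named as biological replicates in the labels, which do not tell if their plantlets grew in separate vessels, so p-values measure only the spread between these samples. Levels below are CPM (counts scaled by TMM-adjusted library size) unless FPKM, which also divides by gene length, is named.

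Green-tissue markers matched the label. The summed level of 19 antenna and Rubisco small subunit genes was 30740 and 27310 CPM with water and 31300 and 32230 CPM with 6-BA, with none at 0. All 19 had a log2 fold change above 0 (median 0.16), and 1 passed, 5.3% against 7.31% of all genes. It was the antenna gene CP26 (LOC110113255, 0.38). Its call was lost without any 1 of the compared libraries (0.32 to 0.45) or of the libraries with both hormones (0.38 each time), and with limma (0.40). Root markers, for an organ the labels do not list, summed to 298.7 and 320.2 CPM with water and 315.0 and 316.1 CPM with 6-BA, 0 of 13 being at 0 in all 4 libraries. Genes annotated as ROOT HAIR DEFECTIVE 3 or 3-like made up most of that sum. The largest, LOC110110270, was at 141 and 160 CPM with water and 156 and 151 CPM with 6-BA. The next, LOC110110275, was at 49.4 and 51.7 CPM with water and 57.3 and 58.9 CPM with 6-BA. Whether these genes are particular to roots was not tested, so the sum is not a measure of root tissue. Of 12 root markers tested, the 2 that passed were lower, SHORT-ROOT-like (LOC110095590, -1.84) and casparian strip membrane protein 2-like (LOC110102706, -1.52). The latter lost its call without any 1 of the compared libraries (-1.16 to -1.98) or of the libraries with both hormones (-1.52 each time), by library total (-1.50) and with limma (-1.08). Floral markers summed to 274.9 and 212.3 CPM against 167.3 and 160.2 CPM, with 7 of 42 at 0, and pollen and seed markers to 672.4 and 625.1 CPM against 561.8 and 560.3 CPM, with 4 of 27 at 0. Most of the floral sum with water came from MADS-box transcription factor 3-like (LOC110105915), which overlaps LOC110105921 on the same strand. It went from 188 and 131 CPM with water to 77.0 and 72.7 CPM with 6-BA. Its fall (-1.09) lost its call without 6-BA replicate 2 (-1.05). Of 21 floral markers tested, 15 had a log2 fold change above 0 and 6 below. An AGL9 homolog (LOC110114689) was higher (2.84), at no more than 1.55 CPM. That call was lost without water replicate 1 (2.08) or 6-BA replicate 2 (2.49). Whether a change in tissue makeup had a part in the results below was not tested. In bulk samples, fewer cells of a type and less RNA per cell cannot be told apart.

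With 6-BA, 604 genes were higher and 816 were lower than with water past an adjusted p of 0.05 (quasi-likelihood test in edgeR, Benjamini-Hochberg adjustment). The 1420 genes were 7.31% of those tested, 3.11% higher and 4.2% lower. A change of at least 2-fold was more often a fall, with 344 genes lower and 147 higher by 1 or more on the log2 scale. The libraries of the groups did not overlap in any of the 1420, but this was also so for 9359 genes that did not pass, and 55.5% of all tested genes were non-overlapping. Of the calls, 208 were for genes with no description or described only as uncharacterized. The count fell when a compared library was left out, to 707 and 603 with water replicate 1 or 2 omitted and to 799 and 494 with 6-BA replicate 1 or 2 omitted. There were 382 genes, 111 higher and 271 lower, that kept their call without any of the 8 libraries in turn and under every other setting tried, and no called gene changed sign. Genes said below to have risen or fallen with no further remark are among these, and a call that depended on a library is given with the value found without it.

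**Figure D1:**
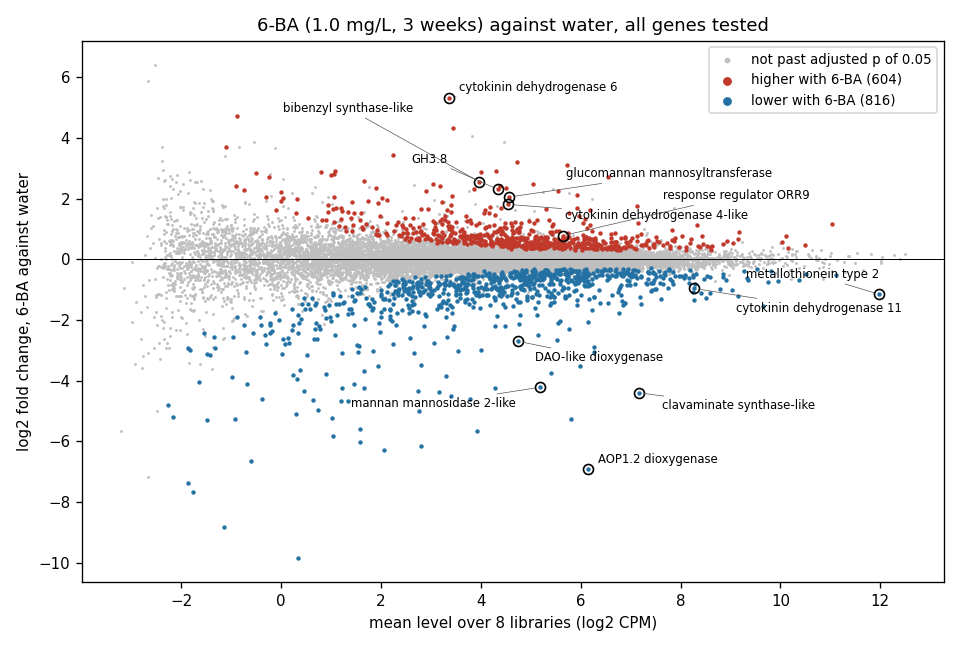
Each point is 1 of the 19420 genes tested, with the mean level over 8 libraries (log2 CPM) on the horizontal axis and the log2 fold change of 6-BA against water on the vertical axis. Red marks the 604 genes higher and blue the 816 genes lower past an adjusted p of 0.05, circles mark the genes plotted by library, and called falls of 4 or more on the log2 scale outnumber called rises of that size.

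Cytokinin dehydrogenases moved in both directions. Cytokinin dehydrogenase 6 (LOC110105324, scaffold NW_021318832.1, 2871437 to 2876360) stood at 0.664 and 0.374 CPM with water and at 22.6 and 19.4 CPM with 6-BA. The 6-BA libraries were far above both water libraries, and the log2 fold change was 5.33 (SE 0.26, edgeR adjusted p = 1.69e-05). Cytokinin dehydrogenase 4-like (LOC110102256) went from 8.51 and 12.6 CPM to 33.4 and 40.7 CPM, a rise of 1.81 on the log2 scale (SE 0.17, edgeR adjusted p = 0.00044). It overlaps LOC114580539 on the opposite strand, and its reads may be shared, as the sources do not state the strandedness. Cytokinin dehydrogenase 11 (LOC110094204) was instead lower, at 395 and 414 CPM with water against 194 and 221 CPM with 6-BA (log2 fold change -0.96, SE 0.11, edgeR adjusted p = 0.000784).

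Per gene length, cytokinin dehydrogenase 11 remained the most abundant of these in both groups. It had 252 and 266 FPKM with water and 126 and 143 FPKM with 6-BA. Cytokinin dehydrogenase 6 went from 0.378 and 0.214 FPKM to 13.1 and 11.2 FPKM, and cytokinin dehydrogenase 4-like from 3.19 and 4.76 FPKM to 12.8 and 15.5 FPKM. The summed level of the 7 family members tested fell, from 416.2 and 440.0 CPM with water to 272.7 and 301.9 CPM with 6-BA. By count, 4 of the 7 were higher and 1 was lower, 71.4% of the list against 7.31% of all genes tested. The median log2 fold change was 0.85 against 0.004. Without water replicate 1 or either 6-BA library 2 were higher. Cytokinin dehydrogenase 3 (LOC110106158, log2 fold change 0.87) lost its call without water replicate 1 (0.70), 6-BA replicate 1 (0.84) or 6-BA replicate 2 (0.89). Cytokinin dehydrogenase 5 (LOC110095507, 0.85) lost it without water replicate 1 (0.78), water replicate 2 (0.94), 6-BA replicate 1 (0.79) or 6-BA replicate 2 (0.91). The 6-like gene LOC110111299 and the 3-like gene LOC110107036 stayed below 2.1 CPM and did not pass.

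**Figure D2:**
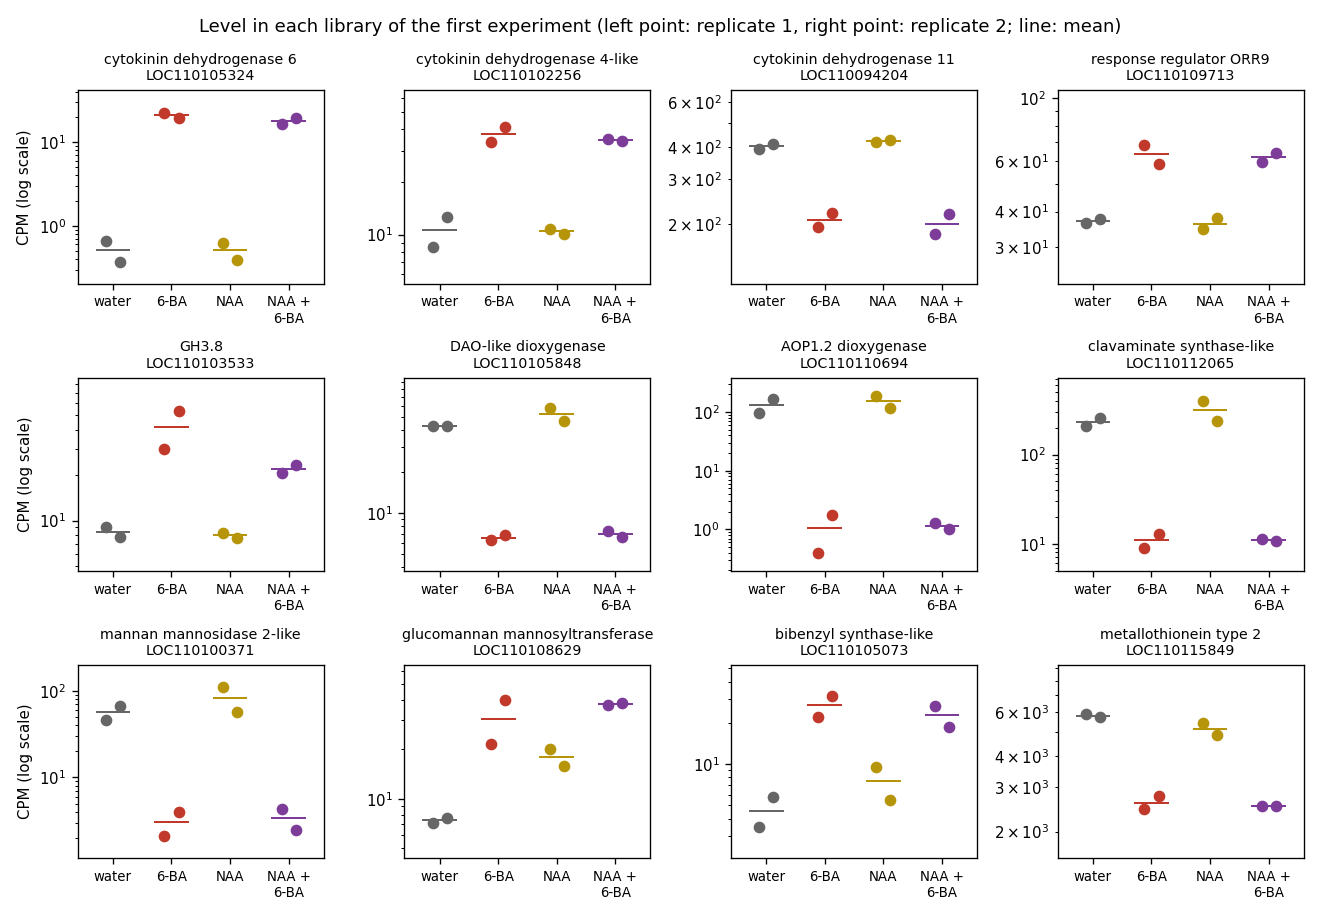
Each panel is 1 gene, with its level in CPM on a log scale for the 2 libraries of the water, 6-BA, NAA and NAA plus 6-BA groups, the left point being replicate 1 and the line the mean. In each of the 12 panels both 6-BA libraries lie beyond both water libraries, from 0.664 and 0.374 to 22.6 and 19.4 CPM for cytokinin dehydrogenase 6. This was so for every called gene, from which the panels were drawn, and for 55.5% of all genes tested.

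Among 24 response regulators and pseudo-response regulators, 6 were higher and 1 was lower, 29.2% of the list against 7.31% of all genes, and the median log2 fold change was 0.28. The genes with the lowest p were of the type-A kind, short regulators that cytokinin induces in rice and Arabidopsis. ORR9 (LOC110109713) was at 36.4 and 37.7 CPM with water and at 68.4 and 58.5 CPM with 6-BA (log2 fold change 0.78, SE 0.10, edgeR adjusted p = 0.00171). ORR1 (LOC110108192) rose from 49.6 and 46.5 CPM to 78.8 and 76 CPM (0.69, SE 0.10), and ORR9-like (LOC110095946) from 45.4 and 42.4 CPM to 79.5 and 67.9 CPM (0.75, SE 0.12). These 3 calls held without any single library. A further ORR9 gene (LOC110101124, 0.70) lost its call without water replicate 2 (0.69), and without that library the list had 3 members higher and 0 lower. ORR6-like (LOC110108467, 1.56) and ORR5-like (LOC110103620, 1.35) were at low levels, at most 2.72 CPM. ORR6-like lost its call without water replicate 1 (1.41), water replicate 2 (1.74), 6-BA replicate 1 (1.56) or 6-BA replicate 2 (1.55). ORR5-like lost it without water replicate 1 (1.16), water replicate 2 (1.59), 6-BA replicate 1 (1.15), 6-BA replicate 2 (1.52) or replicate 2 of the combined treatment (1.35). One more ORR9 gene (LOC110104061) was lower, by -0.64, a call lost without water replicate 2 (-0.39), 6-BA replicate 1 (-0.72), 6-BA replicate 2 (-0.57) or either library that got both hormones (-0.64 in each), and with limma on FPKM (-0.58). The list held 2 lower members without either library of the combined treatment and 0 without either 6-BA library.

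The genes annotated as type-B regulators did not pass. ORR21 (LOC110103116), at 114 and 124 CPM with water and 136 and 137 CPM with 6-BA, had a log2 fold change of 0.20 (SE 0.11, edgeR adjusted p = 0.359). ORR23 (LOC110110124, 0.28) and ORR24 (LOC110109669, 0.43) did not pass, nor did the ORR22 genes LOC110096696 (-0.14) and LOC110095125 (0.17). None of 4 phosphotransfer proteins passed in edgeR, DESeq2 or limma, and 1 had an unadjusted p under 0.05. Of 7 receptor genes, histidine kinase 6 (LOC110115712, 0.38) passed, 14.3% of the list against 7.31% of all genes. It went from 66.3 and 68.8 CPM to 87.3 and 88.1 CPM. Its call was lost without water replicate 1 (0.35), water replicate 2 (0.41), 6-BA replicate 1 (0.38) or 6-BA replicate 2 (0.37), and with limma on FPKM (0.38). On the supply side, adenylate isopentenyltransferase (LOC110111877), which makes the first cytokinin precursor, was at 1.66 and 1.07 CPM with water and at 0.273 and 0.112 CPM with 6-BA. Its fall of -2.81 (SE 0.54, edgeR adjusted p = 0.0124) lost its call without water replicate 1 (-2.46) or 6-BA replicate 2 (-2.31), and with limma on FPKM (-0.57). UDP-glycosyltransferase 73C4 (LOC110115775), whose Arabidopsis relatives include enzymes that glucosylate cytokinins, rose from 16.1 and 19 CPM to 48.0 and 38.5 CPM (1.30, SE 0.12, edgeR adjusted p = 0.000456). The 73C4-like gene LOC110101944 rose by 1.01 (SE 0.16). Of 14 tested genes listed for cytokinin glucosylation, 2 were higher and 2 lower, 28.6% against 7.31% of all genes. The lower calls were each lost without some library. With 6-BA added to NAA, 0 of the list were higher and 2 lower.

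Auxin genes of conjugation, transport and signalling passed, mostly in the higher direction. GH3.8 (LOC110103533), an enzyme that joins auxin to amino acids, was at 9.04 and 7.76 CPM with water and at 29.6 and 53.5 CPM with 6-BA. Both 6-BA libraries were higher, though they differed from each other more than the water libraries did (log2 fold change 2.31, SE 0.24, edgeR adjusted p = 0.000642). A further GH3 gene (LOC110114753) rose from 22 and 16.3 CPM to 42.8 and 50.0 CPM (1.28, SE 0.20). The family member LOC110109191 fell by 0.78, a call lost without water replicate 1 (-0.76), water replicate 2 (-0.79), 6-BA replicate 1 (-0.88) or 6-BA replicate 2 (-0.69), and with limma on FPKM (-0.58). PIN-LIKES 7-like (LOC110093891), an auxin carrier of internal membranes, rose from 8.58 and 8.78 CPM to 18.1 and 19.7 CPM (1.12, SE 0.11, edgeR adjusted p = 0.000576). Its namesake LOC110101370 rose by 1.19, a call lost without water replicate 1 (0.98). Of 23 transport genes 3 were higher and none lower, 13.0% against 7.31% of all genes, with a median of 0.25 against 0.004. Of 38 signalling genes 4 were higher and 2 lower (15.8% against 7.31% of all genes, median 0.17). In the signalling list auxin response factor 2A-like (LOC110100115) rose from 48.7 and 49.6 CPM to 84.4 and 79.4 CPM (0.74, SE 0.09). The repressor IAA4 (LOC110104651) fell from 18.6 and 21.0 CPM to 10.1 and 10.8 CPM (-0.92, SE 0.14). Higher calls in that list numbered 1 without water replicate 2 or 6-BA replicate 2, 2 without water replicate 1 or 6-BA replicate 1, and 7 without either NAA library, and lower calls numbered 1 without water replicate 2 or either 6-BA library. None of 22 SAUR genes, early auxin-induced growth genes, passed in edgeR or limma, while 10 had an unadjusted p under 0.05 and DESeq2 called 3.

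A group of 2-oxoglutarate-dependent dioxygenases annotated as DAO or AOP was lower with 6-BA. DAO enzymes oxidize and inactivate auxin in rice, and AOP genes are named after Arabidopsis genes of glucosinolate side chains. The list was drawn up after its values were seen. Of 16 tested members, 11 were lower and 1 was higher, 75.0% called against 7.31% of all genes. As the list was chosen by these values, that share is no test of it. The summed level of the 16 members was 491.3 and 567.3 CPM with water against 193.0 and 183.0 CPM with 6-BA. AOP1.2 (LOC110110694) was at 95.3 and 163 CPM with water and at 0.400 and 1.74 CPM with 6-BA. No other gene drawn by library moved as far (log2 fold change -6.92, SE 0.50, edgeR adjusted p = 0.000123). The DAO-like gene LOC110105848 fell from 43.2 and 42.7 CPM to 6.30 and 6.85 CPM (-2.71, SE 0.13, edgeR adjusted p = 1.25e-05), and DAO LOC110115800 from 5.72 and 6.56 CPM to 0.527 and 0.431 CPM (-3.67, SE 0.28).

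Several of these dioxygenases lie close together on scaffold NW_021319309.1. LOC110111510 (6291452 to 6293887) went from 91.6 and 102 CPM to 22.2 and 23.5 CPM. LOC110110825 (6330661 to 6331859) went from 23.3 and 21.2 CPM to 0.382 and 0.487 CPM, and LOC110110821 (6335511 to 6336692) from 73.7 and 86.8 CPM to 0.799 and 3.41 CPM. Their log2 fold changes were -2.08 (SE 0.18), -5.67 (SE 0.52) and -5.26 (SE 0.45). LOC110110824 (6349524 to 6350603) fell by 4.25, a call lost without water replicate 2 (-3.99) or 6-BA replicate 1 (-3.45), and with DESeq2 (-4.26). The sources do not state how reads shared between near copies were assigned, so the split between neighbours is uncertain. Members elsewhere did not all follow. LOC110107426 was at 104 and 88.4 CPM with water and 102 and 94.0 CPM with 6-BA (0.02, SE 0.13, edgeR adjusted p = 0.939), and the DAO gene LOC110112108 was higher by 0.54, a call lost without water replicate 1 (0.54), water replicate 2 (0.55) or 6-BA replicate 1 (0.38).

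Lists of other hormone pathways had at most 26 tested genes and 4 calls each. Shares called were 15.4% of 13 gibberellin synthesis genes and 25.0% of 8 genes each for inactivation and signalling, against 7.31% of all genes. For abscisic acid they were 33.3% of 6 inactivation and 15.4% of 26 signalling genes. For ethylene they were 16.7% of 12 synthesis and 20.0% of 5 signalling genes, and for jasmonate synthesis 13.0% of 23. Gibberellin-regulated, abscisic acid synthesis and brassinosteroid lists had no call. Gibberellin 3-beta-dioxygenase 1 (LOC110096318), which makes active gibberellin, fell from 16.6 and 25.3 CPM to 8.96 and 8.05 CPM (log2 fold change -1.30, SE 0.20, edgeR adjusted p = 0.00467). The gibberellin receptor GID1C (LOC110106011) fell by 0.52, a call lost without water replicate 2 (-0.45) or 6-BA replicate 2 (-0.49). The abscisic acid 8'-hydroxylase 3 genes, which break down abscisic acid, moved apart. LOC110112069 rose from 8.66 and 8.23 CPM to 21.7 and 19.2 CPM (1.28, SE 0.16), while LOC110097017 fell from 5.87 and 5.64 CPM to 2.47 and 1.67 CPM (-1.47, SE 0.26), a call lost without 6-BA replicate 2 (-1.22). The kinase SAPK3 (LOC110092671), of a family that relays abscisic acid and osmotic signals in rice, went from 89.7 and 89.2 CPM to 58.8 and 59.4 CPM (-0.60, SE 0.07, edgeR adjusted p = 0.0015). An aminocyclopropane carboxylate oxidase (LOC110105140), which makes ethylene, rose from 454 and 417 CPM to 697 and 672 CPM (0.65, SE 0.10). TIFY 10a (LOC110108135), a repressor of jasmonate signalling, rose from 176 and 161 CPM to 292 and 282 CPM (0.77, SE 0.11). Of 16 jasmonate signalling genes 4 were higher (25.0% against 3.11% of all genes), a count of 1 without water replicate 1 or 6-BA replicate 2 and of 2 without water replicate 2 or 6-BA replicate 1. Carotenoid cleavage dioxygenase 8 (LOC110092372), a strigolactone synthesis enzyme, rose by 1.07, a call lost without water replicate 2 (1.02) or 6-BA replicate 2 (1.05).

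**Figure D3:**
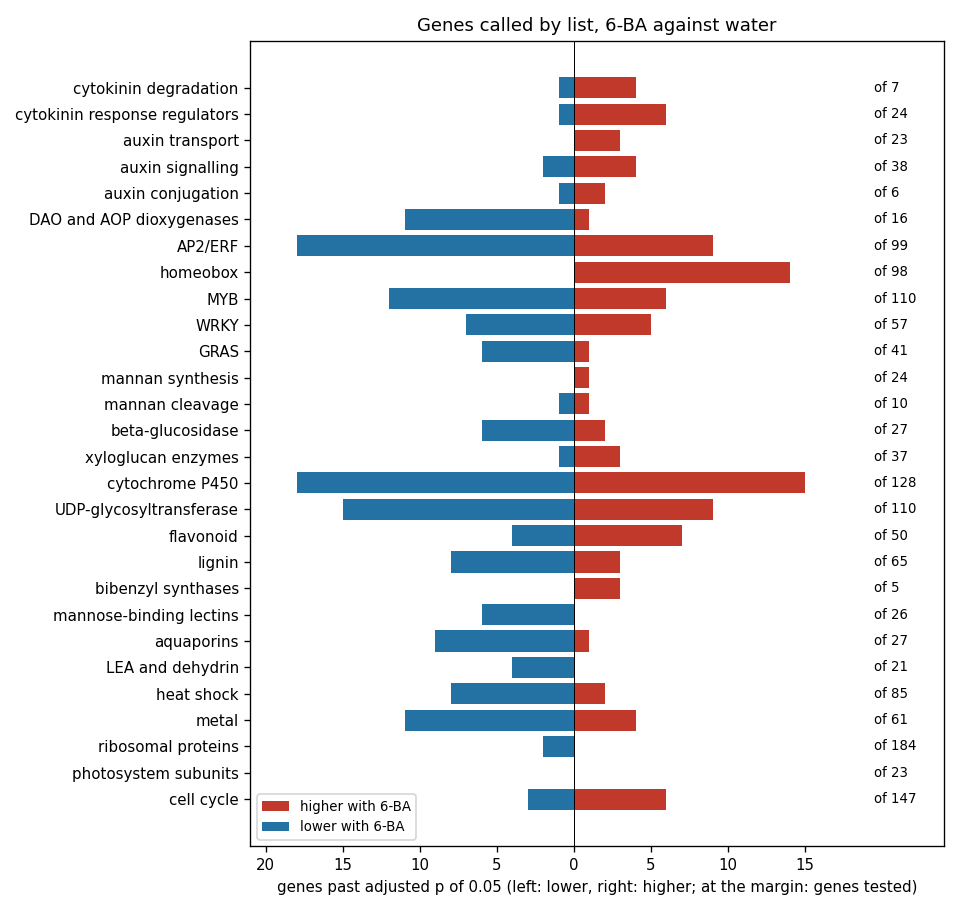
Bars give, for 28 gene lists, how many genes were higher (red, right) or lower (blue, left) with 6-BA past an adjusted p of 0.05, with the number tested at the right margin. Cytochrome P450 genes have 15 higher and 18 lower of 128, homeobox genes 14 higher and 0 lower of 98, and aquaporins 1 higher and 9 lower of 27. Over all genes tested 7.31% were called, 3.11% higher and 4.2% lower. The DAO and AOP list and the bibenzyl synthase list were added after their values were seen.

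Genes of specialized metabolism moved in both directions. Bibenzyl synthases, which build the bibenzyl skeleton of orchid phenanthrenes and were listed after their values were seen, had 3 of 5 tested members higher. That was 60.0% of a list chosen by its values, against 3.11% of all genes called higher. Bibenzyl synthase LOC110115249 was at 16.2 and 40.7 CPM with water and at 137 and 236 CPM with 6-BA (log2 fold change 2.71, SE 0.49), a call that was lost without water replicate 1 (2.2) or 6-BA replicate 2 (2.27). LOC110105073 rose from 3.45 and 5.71 CPM to 22.3 and 31.7 CPM (2.56, SE 0.32, edgeR adjusted p = 0.00163). Its neighbour LOC110105072 rose from 3.86 and 5.74 CPM to 17.7 and 30.2 CPM (2.32, SE 0.30, edgeR adjusted p = 0.00176). Both lie on scaffold NW_021319486.1, between 2280082 and 2290564, and reads may be shared between them. Phenylalanine ammonia-lyase (LOC110113904), the entry enzyme of the phenylpropanoid route that supplies them, rose from 220 and 247 CPM to 331 and 411 CPM (0.67, SE 0.11), a call that was lost without water replicate 1 (0.59) or 6-BA replicate 2 (0.50). The phenylpropanoid entry list had 2 members higher and 1 lower of 18 tested (16.7% against 7.31% of all genes, median 0.11). Each of its calls was lost without some library.

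Lignin and flavonoid lists were mixed. Of 65 lignin genes 3 were higher and 8 lower (16.9% against 7.31% of all genes), the lower calls numbering 4 without water replicate 2, 5 without 6-BA replicate 1 and 3 without 6-BA replicate 2. Caffeoylshikimate esterase genes, of monolignol synthesis, went opposite ways. LOC110100008 rose from 23.9 and 22.4 CPM to 45.0 and 67.3 CPM (1.28, SE 0.16), and LOC110098237 fell from 12.1 and 18.7 CPM to 2.49 and 2.06 CPM (-2.76, SE 0.30). Of 50 flavonoid genes 7 were higher and 4 lower (22%), the higher calls numbering 1 without water replicate 1 or 6-BA replicate 2 and 4 without 6-BA replicate 1. Isoflavone 2'-hydroxylase (LOC110110860) fell from 169 and 163 CPM to 49.9 and 47.1 CPM (-1.77, SE 0.15, edgeR adjusted p = 0.000272). Isoflavone 3'-hydroxylase (LOC110109219) rose from 32.5 and 31.4 CPM to 57.0 and 64.9 CPM (0.93, SE 0.09, edgeR adjusted p = 0.000423).

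Cytochrome P450 enzymes, which oxidize hormones, lipids and secondary metabolites, had 15 members higher and 18 lower of 128 tested, a share of 25.8% beside 7.31% over all genes. The higher calls numbered 5 without water replicate 1 or 6-BA replicate 2. The 7-ethoxycoumarin O-deethylase-like gene LOC110095638 was at 3.42 and 6.06 CPM with water and at 40.8 and 47.1 CPM with 6-BA (log2 fold change 3.21, SE 0.25, edgeR adjusted p = 0.000161). P450 72A15 (LOC110104696) fell from 215 and 240 CPM to 79.7 and 83.3 CPM (-1.48, SE 0.10, edgeR adjusted p = 7.3e-05), and 71A1-like (LOC110098667) from 172 and 201 CPM to 66.3 and 71.0 CPM (-1.44, SE 0.11). P450 84A1-like (LOC110109066), related to the ferulate 5-hydroxylase of Arabidopsis lignin synthesis, fell from 5.49 and 7.99 CPM to 0.0182 and 0.150 CPM (-6.30, SE 0.86). Of 110 UDP-glycosyltransferases 9 were higher and 15 lower (21.8%), the lower calls numbering 7 without water replicate 1, 6 without water replicate 2 and 4 without 6-BA replicate 2, and the higher calls 4 without water replicate 2 and 5 without any of the other 3 compared libraries. Scopoletin glucosyltransferase-like LOC110095970, of a family that glucosylates coumarins, fell from 531 and 547 CPM to 305 and 245 CPM (-0.97, SE 0.12).

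Some of the deepest falls were in small families picked after their values were seen. Clavaminate synthase-like and alpha-humulene synthase genes were called at 75.0% and 66.7%, against 7.31% of all genes, but were chosen by these values. Clavaminate synthase-like genes, annotated as oxygenases, had 3 of 4 tested members lower, all on scaffold NW_021318636.1 between 221886 and 238805. LOC110112065 was at 210 and 254 CPM with water and at 8.96 and 13.0 CPM with 6-BA (log2 fold change -4.40, SE 0.27, edgeR adjusted p = 5.42e-05). LOC110112066 fell from 18.7 and 22.9 CPM to 2.47 and 2.62 CPM (-3.03, SE 0.18), and LOC114579138 from 6.08 and 8.18 CPM to 0.763 and 1.27 CPM (-2.81, SE 0.28). All 3 calls held without any single library, but reads shared between the copies could not be told apart. Alpha-humulene synthases, which make sesquiterpenes, had 4 of 6 tested members lower, 2 of 6 without 6-BA replicate 2. LOC110093810 among them fell from 28.7 and 38.4 CPM to 1.96 and 1.55 CPM (-4.25, SE 0.35). A norcoclaurine 6-O-methyltransferase-like gene (LOC110098946), named for an enzyme of benzylisoquinoline alkaloid synthesis, fell from 14.4 and 19 CPM to 0.745 and 0.712 CPM (-4.52, SE 0.20, edgeR adjusted p = 1.2e-05).

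Genes that build and cut mannans, the storage polysaccharides of these stems, were called at 1 member each with a large change. The synthesis list had 1 call of 24 tested (4.2%), below the 7.31% of all genes. The cleavage list had 1 higher and 1 lower of 10 tested (20.0%). Mannan endo-1,4-beta-mannosidase 2-like (LOC110100371, scaffold NW_021331264.1, 192391 to 195740), which cuts mannan chains, was at 46.5 and 67.1 CPM with water and at 2.14 and 3.95 CPM with 6-BA. Its fall was -4.22 (SE 0.41, edgeR adjusted p = 0.000458). Among the other 9 tested mannosidases only LOC110093783 passed (0.62), a call lost without water replicate 1 (0.70), water replicate 2 (0.55), 6-BA replicate 1 (0.66) or 6-BA replicate 2 (0.58). Mannosidase 1-like LOC110114424 was at 261 and 298 CPM with water and 228 and 243 CPM with 6-BA and did not pass (-0.25, SE 0.09, edgeR adjusted p = 0.136). On the synthesis side, a glucomannan 4-beta-mannosyltransferase (LOC110108629, scaffold NW_021503689.1, 714120 to 720825) rose from 7.13 and 7.69 CPM to 21.6 and 39.8 CPM (2.05, SE 0.25, edgeR adjusted p = 0.00137). It was the 1 member called of 24 tested, and without either NAA library 3 members were called higher.

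Wall genes were called in both directions. A 36.4 kDa proline-rich protein-like gene (LOC110092853) rose from 23.9 and 22.2 CPM to 104 and 97.5 CPM (log2 fold change 2.13, SE 0.13, edgeR adjusted p = 5.9e-05). Expansin-like B1 (LOC110106258), of a wall-loosening family, fell from 42.5 and 33.9 CPM to 9.27 and 11.7 CPM (-1.86, SE 0.19, edgeR adjusted p = 0.000614). Pectate lyase 5 (LOC110115078), which cleaves pectin, rose from 3.42 and 4.07 CPM to 9.72 and 9.51 CPM (1.36, SE 0.18). Polygalacturonase QRT3-like (LOC110098421), also a pectin-cleaving enzyme, fell from 1.97 CPM in each water library to 0.0727 and 0.0375 CPM (-5.09, SE 0.63). BURP domain genes, plant-specific proteins of the cell wall space picked after their values were seen, had 2 members lower and 3 higher of 8, the higher calls numbering 1 without water replicate 2 and 0 without 6-BA replicate 2. The BURP list, chosen by its values, was called at 62.5% against 7.31% of all genes. BURP 3-like LOC110115695 fell from 95.5 and 117 CPM to 4.94 and 13.7 CPM (-3.51, SE 0.36). BURP 5-like LOC110093589 fell from 48.8 and 79.7 CPM to 3.02 and 6.56 CPM (-3.75, SE 0.40).

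Among transcription factors, AP2/ERF genes, many of which act in stress and ethylene responses, had 9 members higher and 18 lower of 99 tested (27.3% against 7.31% of all genes), with a median log2 fold change of -0.19. The lower calls numbered 6 without water replicate 1, 7 without water replicate 2, 11 without 6-BA replicate 1 and 5 without 6-BA replicate 2, and the higher calls 4 without water replicate 1, 3 without water replicate 2 and 3 without 6-BA replicate 2. ERF9-like (LOC110096240) fell from 17.8 and 19.9 CPM to 3.38 and 3.02 CPM (-2.56, SE 0.15, edgeR adjusted p = 5.42e-05). The genes annotated as ERN1, after a Medicago factor of root nodulation, were also lower, LOC110109222 from 6.33 and 6.26 CPM to 0.436 and 0.225 CPM (-4.24, SE 0.34) and LOC110096456 from 2.89 and 3.57 CPM to 0.127 and 0.187 CPM (-4.34, SE 0.41). Homeobox genes had 14 members higher and 0 lower of 98 tested (median 0.18), 14.3% called higher against 3.11% of all genes. That count was 8 without water replicate 1, 2 without water replicate 2, 7 without 6-BA replicate 1 and 3 without 6-BA replicate 2. The BEL1 homolog (LOC110097562), of a class that pairs with meristem homeodomain proteins, rose from 6.23 and 8.91 CPM to 17.6 and 19.3 CPM (1.29, SE 0.20). ATH1 (LOC110092098), of the same class, rose from 29.7 and 28.7 CPM to 43.3 and 44.0 CPM (0.58, SE 0.08) but overlaps LOC110092130 on the opposite strand.

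Single members of other factor families also changed. LOB domain-containing protein 40 (LOC110096637) rose from 22.8 and 12.1 CPM to 52.1 and 56.7 CPM (log2 fold change 1.64, SE 0.26), and LOB 12-like (LOC110099306) fell from 3.52 and 2.74 CPM to 0.727 and 0.805 CPM (-2.03, SE 0.30). TCP20-like (LOC110111827), of a family that sets organ growth, rose from 3.19 and 3.04 CPM to 6.90 and 6.87 CPM (1.14, SE 0.17). Myb-related protein 308 (LOC110112193), whose snapdragon namesake represses phenolic synthesis, fell from 76.1 and 66.6 CPM to 33.5 and 27.4 CPM (-1.23, SE 0.17). WRKY 2 (LOC110098410) fell from 2.96 and 3.82 CPM to 0.545 and 0.581 CPM (-2.59, SE 0.37), and scarecrow-like protein 3 (LOC110105054), a GRAS factor of gibberellin responses in Arabidopsis, from 57.9 and 60.6 CPM to 33.8 and 34.1 CPM (-0.80, SE 0.08). Of 110 MYB genes 6 were higher and 12 lower (16.4% against 7.31% of all genes), the lower calls numbering 7 without water replicate 1, 5 without water replicate 2 and 3 without 6-BA replicate 2, and the higher calls 1 without any of these and 3 without 6-BA replicate 1. The root regulator SHORT-ROOT-like (LOC110095590), which is in both the GRAS and the root marker lists, fell from 3.45 and 3.94 CPM to 1.05 and 1.01 CPM (-1.84, SE 0.26).

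The most abundant called gene was a metallothionein-like protein type 2 (LOC110115849), a small protein that binds metal ions. It stood at 5912 and 5708 CPM with water and at 2453 and 2770 CPM with 6-BA, so that the gene was abundant in all 4 libraries and the groups were well apart (log2 fold change -1.15, SE 0.11, edgeR adjusted p = 0.000423). Ferritin-3 (LOC110101286), the plastid iron store, fell from 852 and 1259 CPM to 375 and 353 CPM (-1.54, SE 0.19, edgeR adjusted p = 0.00131). Vacuolar iron transporter 1.1 (LOC110097114) fell from 85.4 and 94.1 CPM to 42 and 36.7 CPM (-1.19, SE 0.12). Ferritin-4 (LOC110101280) fell by 0.49, a call lost without 6-BA replicate 1 (-0.48) or 6-BA replicate 2 (-0.50). The ferritin pair was listed after its values were seen. A chaperone DnaK-like gene (LOC110114121) was higher, from 1150 and 1224 CPM to 2837 and 2432 CPM (1.15, SE 0.12, edgeR adjusted p = 0.000585). Polyubiquitin 11 (LOC110108096) fell from 1774 and 1959 CPM to 1150 and 1148 CPM, and annexin D1 (LOC110105807), a calcium-dependent membrane-binding protein, from 1320 and 1279 CPM to 853 and 744 CPM, by -0.70 each (SE 0.09 and 0.10).

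Aquaporins, the water channels of the plasma and vacuole membranes, had 9 members lower and 1 higher of 27 tested (37.0% against 7.31% of all genes), with a median log2 fold change of -0.39 and 21 members below 0. The lower calls numbered 4 without water replicate 2, 6-BA replicate 1 or 6-BA replicate 2, and the single higher call was absent without either water library or 6-BA replicate 1. TIP2-1 (LOC110101105), of the vacuole membrane, fell from 83.8 and 117 CPM to 40.2 and 41.4 CPM (-1.30, SE 0.18, edgeR adjusted p = 0.00272). PIP2-4 (LOC110101325), of the plasma membrane, fell from 340 and 341 CPM to 224 and 217 CPM (-0.63, SE 0.09, edgeR adjusted p = 0.00307). Late embryogenesis abundant proteins, which protect cells during drying, had 4 of 21 lower (19%) and none higher. The member D-29-like (LOC110107445) fell from 624 and 564 CPM to 247 CPM in each 6-BA library (-1.27, SE 0.17). Lea14-A (LOC110115063) fell from 290 and 293 CPM to 165 and 140 CPM (-0.93, SE 0.10). Of 85 heat shock genes 2 were higher and 8 lower (11.8%), the lower calls numbering 4 without water replicate 2 or 6-BA replicate 2 and 3 without 6-BA replicate 1, and the higher calls 1 without any of these or either library of the combined treatment. Heat shock cognate 70 kDa protein 2 (LOC110108419) fell from 815 and 1010 CPM to 394 and 389 CPM (-1.22, SE 0.11).

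Among transporters and defence genes, ABC transporter G38-like (LOC110101822), of a class that exports lipids and hormones, fell from 15.1 and 29.4 CPM to 0.709 and 1.10 CPM (log2 fold change -4.62, SE 0.47, edgeR adjusted p = 0.000587). Member G44 (LOC110104216) fell from 46.6 and 62.9 CPM to 8.32 and 11 CPM (-2.50, SE 0.26). NRT1/PTR family 5.2 (LOC110104019), of the nitrate and peptide transporter family, rose from 10.9 and 12.2 CPM to 23.0 and 23.9 CPM (1.02, SE 0.11). Family member 5.10 (LOC110092408) fell from 28 and 29.3 CPM to 10.6 and 12.2 CPM (-1.33, SE 0.14). Potassium transporter 5 (LOC110095230) rose from 22.9 and 27.6 CPM to 47.5 and 61.7 CPM (1.11, SE 0.13). Among pathogenesis-related protein 1-like genes, LOC110102547 fell from 73.3 and 95.6 CPM to 30.3 and 28.5 CPM (-1.52, SE 0.16), and LOC110109014 rose from 52.7 and 61.0 CPM to 110 and 105 CPM (0.92, SE 0.15), a call lost without water replicate 1 (0.82).

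Growth and photosynthesis lists held few calls. Of 147 cell cycle genes 6 were higher and 3 lower, a share near the 7.31% of all genes, and no higher call was made without any 1 of the 4 compared libraries, while the lower calls numbered 1 without either 6-BA library. Cyclin-D4-1 (LOC110115423), a regulator of entry into division, fell from 11.1 and 10.9 CPM to 4.25 and 5.73 CPM (log2 fold change -1.14, SE 0.17). Of 51 histone genes 1 was lower, a count of 2 without 6-BA replicate 2. None of 23 photosystem subunits passed in edgeR, DESeq2 or limma, and 1 had an unadjusted p under 0.05. Ribosomal protein genes had 175 of 184 members below 0 and a median of -0.20 (-0.18 with scaling by library total), but 2 passed. The lower calls numbered 1 without water replicate 2 and 0 without water replicate 1 or either 6-BA library. Their summed level was 24850 and 22050 CPM with water and 20480 and 20260 CPM with 6-BA.

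The same hormone was also given on top of NAA, in 4 libraries that shared the fit and its estimate of spread but supplied neither mean of the comparison with water. There 1083 genes passed, 5.58% of those tested, with 376 higher (1.94%) and 707 lower (3.64%). Scaling by library total gave 527 higher and 624 lower. In that comparison 179 genes were higher and 380 lower in the same direction as with 6-BA alone. These were 29.6% and 46.6% of the lists for 6-BA alone and 47.6% and 53.7% of the lists on NAA, while 6 and 4 genes passed in opposite directions. With NAA replicate 1 omitted 581 genes passed there, and with replicate 1 or 2 of the combined treatment omitted 387 and 617. Cytokinin dehydrogenase 6 (LOC110105324) went from 0.630 and 0.387 CPM with NAA to 16.4 and 19.7 CPM with both hormones (log2 fold change 5.13, edgeR adjusted p = 2.96e-05). AOP1.2 (LOC110110694) went from 188 and 115 CPM to 1.26 and 1.00 CPM (-7.05, SE 0.49). The mannosidase LOC110100371 went from 109 and 56.4 CPM to 4.38 and 2.47 CPM (-4.57, SE 0.40), and metallothionein LOC110115849 from 5416 and 4866 CPM to 2538 and 2526 CPM (-1.02, SE 0.11).

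**Figure D4:**
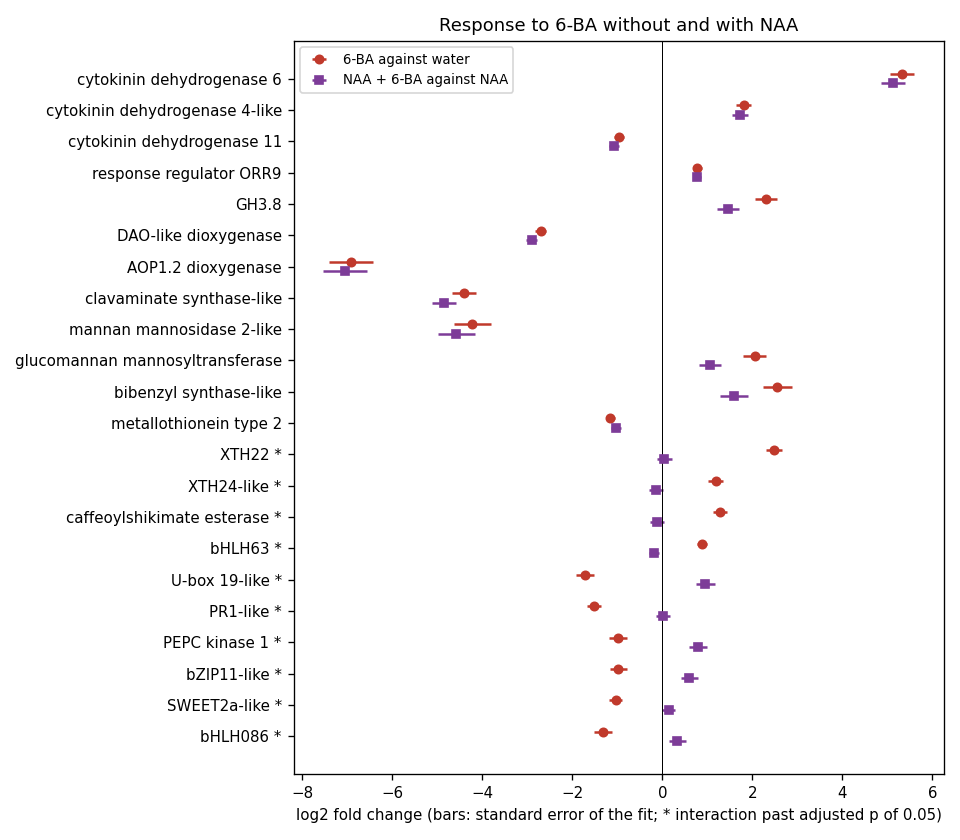
The horizontal axis is the log2 fold change with its standard error for 6-BA against water (circles) and for NAA plus 6-BA against NAA (squares), for the 12 genes plotted by library and 10 genes whose responses differed. Cytokinin dehydrogenase 6 lies near 5 in both comparisons, while XTH22 lies at 2.48 without NAA and at 0.04 with it, and a star marks an interaction past an adjusted p of 0.05.

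The test of the difference between these responses, an interaction in the same fit, passed for 101 genes, 0.52% of those tested (30 above and 71 below 0). Of these, 54 were also called for 6-BA alone and 47 were not. In 48 of the 54 the larger response was in the absence of NAA. Choosing genes by their response to 6-BA alone favours that outcome, so no direction is read from it. Xyloglucan endotransglucosylase/hydrolase 22 (LOC110098232), which rearranges wall polysaccharides, was at 6.72 and 6.81 CPM with water and at 42.2 and 33.1 CPM with 6-BA, but at 44.7 and 40.6 CPM with NAA and 36.3 and 51.5 CPM with both. The water libraries alone were low, and the interaction was -2.44 (SE 0.24, edgeR adjusted p = 0.016). U-box domain-containing protein 19-like (LOC110108815), a ubiquitin ligase, was at 11.4 and 14.8 CPM with water, 3.76 and 4.21 CPM with 6-BA, 2.68 and 2.32 CPM with NAA and 5.34 and 4.40 CPM with both (interaction 2.67, SE 0.28, edgeR adjusted p = 0.016). The interaction count was 0 without either water library, where 1286 (without replicate 1) and 1558 (without replicate 2) genes had an unadjusted p under 0.05. It was 7 without NAA replicate 1, 204 without NAA replicate 2, 4 without 6-BA replicate 1, 28 without 6-BA replicate 2 and 5 without replicate 1 of the combined treatment.

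In plantlets 9 months old the genes called in young plantlets were read at 0 and 1.0 mg/L with 1 library for each condition, and no test was made. These 4 libraries were scaled only by their totals of 15090869 to 15655685 counts. The top 10 genes held 11.3% of counts at 0 and 13.7% at 1.0 mg/L after 2 weeks, and 4.7% and 10.5% after 4 weeks. Whether this difference moved the shares of higher and lower genes was not tested. After 2 weeks, 3.08% of 17410 genes with at least 1 CPM in either library were at least 2-fold higher and 12.2% at least 2-fold lower with 6-BA. Of the genes higher with 6-BA in young plantlets, 9.74% were higher and 20.9% lower, and of those lower in young plantlets 4.1% were higher and 19% lower. After 4 weeks, 10.8% of 17841 genes were higher and 21.8% lower. Of the genes higher in young plantlets 27.4% were then higher and 32.5% lower, and of those lower in young plantlets 26.8% were higher and 16.7% lower. Genes moved both ways in each list at both times. Among the 111 genes that rose in young plantlets under every setting tried, 17.6% were higher and 10.2% lower after 2 weeks and 37.6% higher and 24.8% lower after 4 weeks, so that higher genes outnumbered lower ones, unlike in the full list. Among the 271 that fell under every setting, 7.62% were higher and 26.5% lower after 2 weeks but 35.2% higher and 16.9% lower after 4 weeks. Cytokinin dehydrogenase 6 (LOC110105324) was at 0.192 CPM without and 1.62 CPM with 6-BA at 2 weeks, and at 0.328 and 11.3 CPM at 4 weeks, higher with the hormone at both times as in young plantlets. The mannosidase LOC110100371 was at 17.5 and 1.10 CPM at 2 weeks but at 0.394 and 2.25 CPM at 4 weeks, and metallothionein LOC110115849 was at 3791 and 4250 CPM and then at 995 and 4168 CPM. The AOP1.2 gene LOC110110694 was at 1.09 CPM in the 0 mg/L library at 2 weeks and had no counts in the other 3 of these libraries. A count of 0 allows up to 0.194 CPM at 1.0 mg/L after 2 weeks, and after 4 weeks 0.197 CPM at 0 mg/L and 0.199 CPM at 1.0 mg/L, for counting error only.

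**Figure D5:**
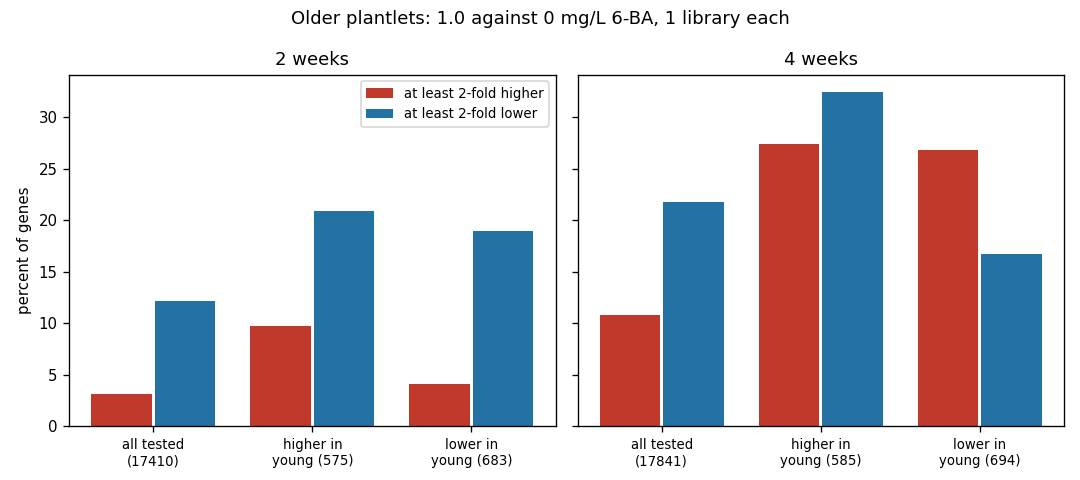
Bars give the percent of genes at least 2-fold higher (red) or lower (blue) at 1.0 than at 0 mg/L 6-BA in plantlets 9 months old, after 2 and 4 weeks, 1 library each, with the number of genes in parentheses. Of the genes higher with 6-BA in young plantlets, 9.74% were higher and 20.9% lower after 2 weeks, and 27.4% and 32.5% after 4 weeks.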

How the data were processed

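Messenger RNA selected with Oligo(dT) was sequenced, per the labels' protocols. Per the submitters' processing notes the tools were HISAT2 2.0.6, Cufflinks 2.2.2 and edgeR, without their roles. The sources used here do not state genome build, annotation release or strandedness. The authors deposited raw counts per gene and library. Per the file headers, their other tables hold FPKM, which served for levels per length and for limma. Descriptions came from the second count table for 22701 of 23063 features, joined by gene name, and 0 columns belonged to other samples.

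Counts of 8 libraries in 4 groups were fitted together in edgeR 4.0.16 (R 4.3.3) with filterByExpr, TMM scaling and the quasi-likelihood test, leaving 4 residual degrees of freedom and a biological coefficient of variation of 0.115. Contrasts were 6-BA against water, 6-BA added to NAA, and their interaction, with Benjamini-Hochberg adjustment over 19420 genes at 0.05. The procedure was tested on simulated data. Older plantlets had 1 library a group and no test, and counts were divided by library totals. Low counts limit precision, and intervals of this kind cover counting error only, since reads are not independent molecules.

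Genes could be named as the 15 rises and 15 falls of greatest size past the threshold, if described, with groups that do not overlap and both an absolute log2 fold change and a mean log2 CPM of 1 or more, as the 10 most abundant called genes, as the 3 called members of lowest p in a list, and as any of the cytokinin dehydrogenases, response regulators and mannosidases. The text uses some of these. Members and lists, drawn from words in the descriptions, were chosen with earlier results of these data known. The bibenzyl synthase, DAO and AOP, ferritin, humulene synthase, clavaminate synthase-like and BURP lists, all of whose members in the first 3 could be named, were added after their values were seen. Alternatives were DESeq2 1.42.0 size factors and Wald test, library-total scaling, no filter, a replicate block, only the 4 compared libraries, limma 3.58.1 on log2(FPKM + 1), and leaving out each library. Tables and plots used Python 3.11.15, pandas 2.3.3, NumPy 2.4.6 and Matplotlib 3.10.9.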

Additional observations from a re-analysis of the deposited data

Results flagged for a closer look

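The responses of 10 named genes to 6-BA differed between plantlets without and with NAA by the interaction test (edgeR, adjusted over all genes). Each value is the log2 fold change of 6-BA on NAA minus that of 6-BA alone. All of these calls were lost without either water library, when no gene passed in edgeR (1286 and 1558 genes then had an unadjusted p under 0.05).

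In 4 genes the value was negative, 6-BA raising the gene in the absence of NAA. Xyloglucan endotransglucosylase/hydrolase 22 (LOC110098232) had an interaction of -2.44, with 2.48 alone and 0.04 on NAA. Its wall-enzyme relative 24-like (LOC110110142) had -1.32, being at 30.6 and 37.4 CPM with water, 80.0 and 74.6 with 6-BA, 89.1 and 69.8 with NAA and 62.5 and 82.7 with both. Caffeoylshikimate esterase (LOC110100008), of lignin synthesis, had -1.40, at 23.9 and 22.4 CPM, then 45.0 and 67.3, 43.6 and 45.8, and 39.3 and 43.0 in the same order of groups. The transcription factor bHLH63 (LOC110096494) had -1.07, at 26.2 and 24.3, 51.5 and 42, 51.8 and 49.3, and 42.9 and 46.1 CPM.

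In 6 genes the value was positive, 6-BA lowering the gene in the absence of NAA. U-box domain-containing protein 19-like (LOC110108815) had 2.67, with -1.72 alone and 0.96 on NAA. Phosphoenolpyruvate carboxylase kinase 1 (LOC110096942), which activates a carbon-fixing enzyme, had 1.78, with -0.99 alone and 0.79 on NAA. The factors bHLH086 (LOC110102628) and bZIP 11-like (LOC110113543) had 1.65 and 1.58. The 6-BA calls of bZIP 11-like (-0.98) and of the kinase were lost without some libraries, the former without water replicate 2 (-0.87) or 6-BA replicate 2 (-0.89), the latter without water replicate 1 (-0.77), 6-BA replicate 1 (-1.05) or 6-BA replicate 2 (-0.93). Pathogenesis-related protein 1-like (LOC110102547) had 1.54, at 73.3 and 95.6 CPM with water, 30.3 and 28.5 with 6-BA, 65.7 and 64.3 with NAA and 55.4 and 76.6 with both, so that 6-BA alone was low. The sugar transporter SWEET2a-like (LOC110112344) had 1.18, and there the water libraries, at 46.3 and 58.4 CPM, were above all others (25.4 to 35.6 CPM).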

How the results depend on the processing

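The count of 1420 genes for 6-BA against water was 1429 with DESeq2 size factors, 1430 by library total, 1520 without a filter, 1757 with only the 4 compared libraries, 2047 with the DESeq2 Wald test and 1319 with limma. Leaving out 1 library gave 494 to 1688. For 6-BA on NAA the DESeq2 Wald test gave 1750 in place of 1083, and leaving out 1 library 387 to 1174. The interaction count of 101 was 154 without a filter, 383 with the DESeq2 Wald test, 43 with limma, and 0 to 204 with 1 library left out. The causes were not tested. Same-numbered replicates of water and 6-BA deviated together by a correlation of 0.08, and other pairs of groups by -0.44 to 0.35, so the numbers were not taken as pairs. With a replicate block the counts were 1170, 835 and 37. Over 281 named genes no call changed sign. Calls were lost in 96 without 6-BA replicate 2, in 80 and 68 without water replicate 2 and 1, in 59 without 6-BA replicate 1, in 20 each with limma and the block, and in 2 by library total. The limma values of low genes were smaller, since 1 was added to each FPKM. With 2 libraries a group, small changes could not be separated from replicate spread.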

Other observations

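Calcium signalling genes moved in both directions with 6-BA alone. Of 149 tested, 7 were higher and 16 lower, a share of 15.4% against 7.31% of all genes, with a median log2 fold change of -0.05. The higher calls numbered 4 and the lower calls 6 without water replicate 2, and the lower calls 6 without water replicate 1, 10 without 6-BA replicate 1 and 4 without 6-BA replicate 2. The calmodulin-like protein CML45 (LOC110107884) fell from 72.1 and 73.6 CPM with water to 32.5 and 22.5 CPM with 6-BA (-1.41, SE 0.14, edgeR adjusted p = 0.000585). Its relative CML19 (LOC110115915) rose from 3.07 and 1.92 CPM to 13.3 and 14.8 CPM (2.49, SE 0.25, edgeR adjusted p = 0.000525). In both the groups were well apart.

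Some of the steepest changes lay outside the gene lists described above. Glutathione S-transferase U17-like (LOC110101897), of a family that conjugates glutathione to small molecules, fell from 13.2 CPM in each water library to 0.690 and 0.618 CPM with 6-BA (-4.33, SE 0.40). The cucumisin-like protease LOC110115744 fell from 11.1 and 15.9 CPM to 0.799 and 0.506 CPM (-4.36, SE 0.30), and went from 25.8 and 18.0 CPM with NAA to 0.762 and 0.879 CPM with both hormones. Pyruvate decarboxylase 1 (LOC110109144), an enzyme of fermentation, was at 2.71 and 0.399 CPM with water and at 6.83 and 55.7 CPM with 6-BA. It was thus far higher in 1 of the 6-BA libraries than in the other, and its call (4.34) was lost without that library (2.14), as it was without water replicate 1 (6.28) or 2 (3.54), without either library given both hormones (4.34 each time), with the block (4.53) and with limma (2.84).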
